A study of Mus musculus with 13 samples.

Results

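Genes of the p53 pathway and of growth arrest were followed through STAT3 binding data from mouse B cells: Mdm2, Trp53inp1, Gadd45b, Gadd45g, Cdkn1a and Gen1. They are 6 of 21883 protein-coding genes. Peaks of all 12 deposited peak lists that overlapped the RefSeq span of a gene, or the 50 kb on each side of it, were taken. Peaks of different libraries sharing at least 1 bp were joined into a region, which gave 11 of the 11227 regions of the series, built from 27 of 13513 peaks. The genes were chosen with these peaks in view. Their presence by treatment, isotype and genotype is therefore described and not tested.

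STAT3 binding was mapped by CUT&RUN, in which an antibody held at its target directs a nuclease to cut the DNA beside it. Splenic mouse B cells, wild type (WT) or labelled STAT3 KO, were grown with anti-CD40 at 1 µg/mL and IL-4 at 12.5 ng/mL for 96 h and sorted by surface isotype. For the last 1 h, 400000 IgM+ or IgG1+ cells received anti-CD40 and either the same dose of IL-4 or 10 ng/mL of IL-21, so all groups had seen IL-4 before. The 4 WT groups had 2 libraries each and the 4 KO groups 1 library each. The strain and age of the mice and the way STAT3 was deleted were not stated in the labels. The labels record no IL-4 during the hour with IL-21, and adding IL-21 and removing IL-4 cannot be told apart. Peak lists hold no measure of cell type markers or of the deleted gene, so the labels could not be checked in this way.

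p53 is a transcription factor that is stabilised by DNA damage and switches on genes that stop the cell cycle, repair DNA or kill the cell. Mdm2 closes the loop as the ubiquitin ligase that marks p53 for destruction. B cells that divide fast and cut their own immunoglobulin genes make DNA breaks in the course of a normal response, and STAT3 is the main transcription factor activated by IL-21.

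The strongest region lay at Gen1, which encodes a nuclease that resolves Holliday junctions, the cross-shaped DNA structures left by recombination. The region (mm10 chr12:11265209-11266187) covered the start of Gen1 and that of its neighbour Smc6, a subunit of a DNA repair complex related to cohesin. Both genes start there on opposite strands, 79 bp apart. The 78 bases between the starts are shown because they hold a match to the STAT pattern TTCNNNGAA, in capitals, from 6 to 14 bases before the Gen1 start of the RefSeq promoter table, from which all Gen1 distances are given. The RefSeq span of Gen1 (chr12:11238928-11266029, minus strand) reaches 222 bp beyond that start and past the Smc6 start, so the match also lies inside the span. The bases run from beside the Smc6 start to beside the Gen1 start. They come from the same table (GRCm38.p6, the assembly behind mm10), chr12:11265808-11265885, minus strand.
Smc6 to Gen1: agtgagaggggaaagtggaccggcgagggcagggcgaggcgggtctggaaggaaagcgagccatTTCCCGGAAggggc

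Fold enrichment is the authors' ratio of the summit signal to a local background. Whether that background came from the same library or from a control was not stated. At this region the fold was 29.9 and 17.2 in the WT IL-21 IgM libraries and 14.2 and 22.6 in the WT IL-21 IgG1 libraries. The mean was 21.0 ± 6.89 (SD, n = 4). No peak was listed there in the 4 WT IL-4 or the 4 KO libraries. The IL-21 isotypes overlapped in fold, with 1 IgG1 library above and 1 below the lower IgM library. Ranked by −log10 p within its own list, the Gen1 peak was number 13 of 2034, 14 of 1171, 18 of 865 and 13 of 1485, in the same order. Most of the peaks ranked above it (8 of 12, 9 of 13, 11 of 17 and 8 of 12) lay in regions that also had a peak in at least 1 KO library.

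The fold and the −log10 p of a peak together give the number of fragments at its summit and the local background, if the background is read as a Poisson mean and 1 is added to both, as the peak caller does. By this reading the Gen1 summit held 140 and 122 fragments in the IgM libraries and 83 and 121 in the IgG1 libraries, over local backgrounds of 3.71, 6.15, 4.90 and 4.39 fragments. The 4 summits fell within 82 bp of each other. They lay 73 to 155 bp from the centre of the TTCNNNGAA match, on the Gen1 side of it, 63 to 145 bp past the table's start and 285 to 367 bp inside the end of the Gen1 span.

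TTCNNNGAA is a palindromic pattern typical of sites that STAT proteins bind, and the form with 4 bases in place of 3 between TTC and GAA is the one preferred by STAT6. Each reads the same on both strands, and the 2 forms do not overlap in the windows of these genes. TTCNNNGAA occurred in 8.30% and the wider form in 6.95% of the 32851 promoter windows of the table, each 300 bp long. Of the 30 windows lying wholly inside a region listed by all 4 IL-21 libraries of WT cells but by none of their IL-4 libraries, 17 (56.7%) held TTCNNNGAA, and the windows of Gen1 and Smc6 are among these 17, sharing 1 match. In windows wholly inside regions found in a single library the count was 8 of 60 (13.3%). The wider form was in 4 of the 30 (13.3%) and in 1 of the 60 (1.67%). The table matched 5 of the 6 genes, not Trp53inp1. The windows of Gadd45b, Gadd45g and Mdm2 and both windows of Cdkn1a held neither form. These windows reach only 250 bp before and 50 bp past the start, and the other regions described here lie mostly outside them.

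**Figure D1:**
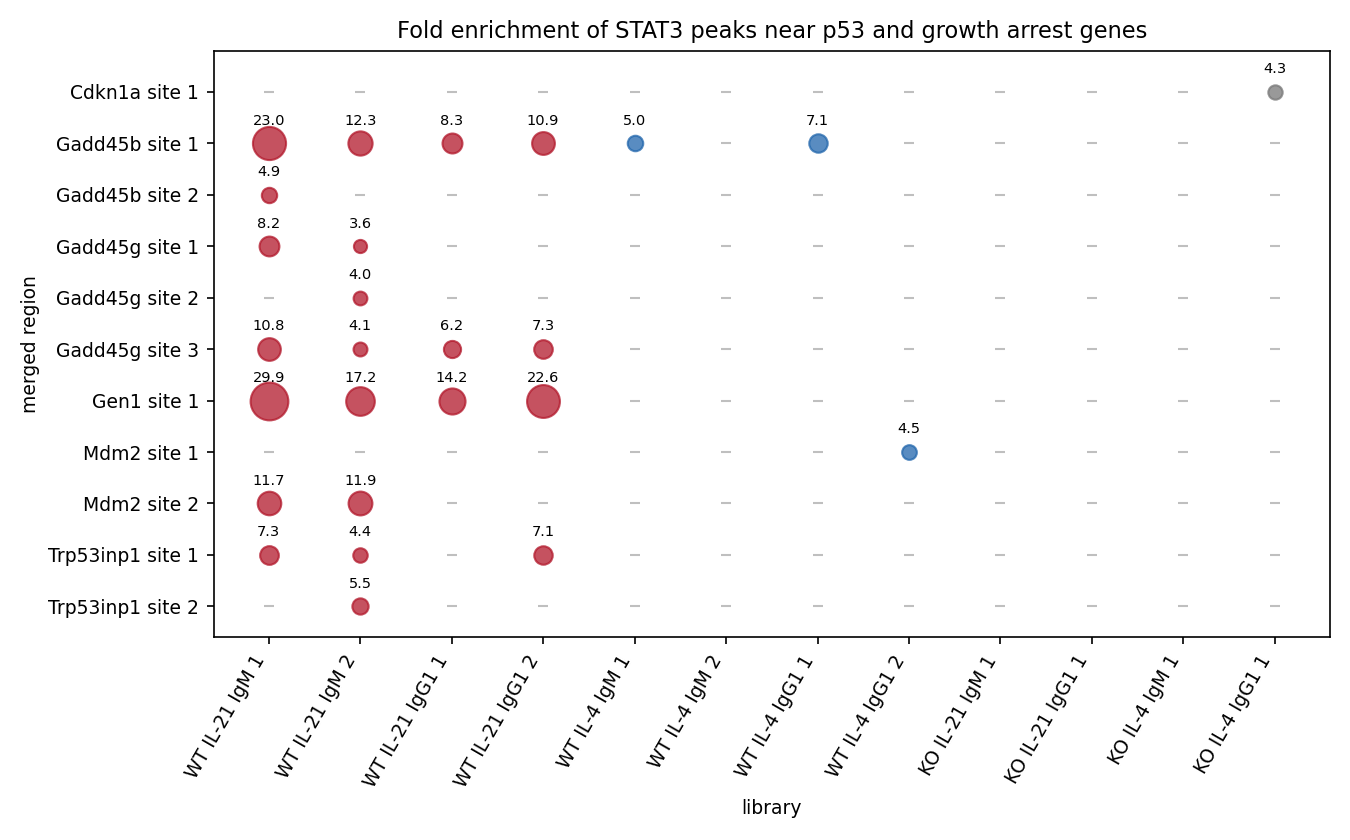
Fold enrichment (area of each circle, printed above it) for the 11 regions (vertical axis, numbered along the chromosome within each gene) in the 12 libraries (horizontal axis). Red marks WT IL-21, blue WT IL-4 and grey KO libraries, and a dash marks a library with no peak. Gen1 site 1 has folds of 14.2 to 29.9 in the 4 WT IL-21 libraries and no peak elsewhere, whereas the single Cdkn1a peak is in a KO library.

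Across the 6 genes, 23 of the 27 peaks came from WT IL-21 libraries, 3 from WT IL-4 libraries and 1 from a KO library. The WT IL-21 lists hold 5555 of all 13513 peaks, 41.1%. Of the 11 regions 8 had peaks in WT IL-21 libraries and in no other library, as had 3875 of the 11227 regions of the series, 34.5%. Of the 11 regions 6 were found in at least 2 libraries and 5 in 1 library only. Over the series 10180 of the 11227 regions were found in 1 library only. Of the 11 regions 2, at Gen1 and Gadd45g, were listed by all 4 IL-21 libraries of WT cells but by none of their IL-4 libraries, the pattern called gained here. Over the series, 98 of the 7461 regions with a WT peak were gained, 1.31%. By gene, 2 of the 6 windows held a gained region, against 303 of 21883 protein-coding gene windows, 1.38%. The genes were picked by this contrast, so nothing is read from these shares. The window of a gene of this set held a median of 2 regions, and that of any protein-coding gene a median of 1.

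The Gadd45 proteins are small stress sensors that bind the kinase Map3k4, PCNA and cyclin B1-Cdk1. Gadd45b and Gadd45g, both induced by growth-arresting and cytokine signals, had regions close to their starts. The main Gadd45b region (mm10 chr10:80928718-80930420) had summits 494 to 580 bp before the gene start (gene span chr10:80930091-80932204), taking the highest peak of each library. Its fold was 23.0 and 12.3 in the WT IL-21 IgM libraries and 8.33 and 10.9 in the WT IL-21 IgG1 libraries, a mean of 13.6 ± 6.47 (SD, n = 4). It also had a peak in 1 of the 2 WT IL-4 IgM libraries, with a fold of 5.04, and in 1 of the 2 WT IL-4 IgG1 libraries, with a fold of 7.13. It was thus found with both treatments. Among these highest peaks every IL-21 fold lay above both IL-4 folds, and both IL-21 IgM folds above both IL-21 IgG1 folds. The share of all regions with these orders is not given here. The second IL-21 IgG1 library had another peak in the region (chr10:80930166-80930420), with its summit 311 bp past the gene start, a fold of 3.30 and rank 1234 of 1485. It held 19 fragments at its summit, and its fold was below both IL-4 folds. None of the 4 KO libraries had a peak there.

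Rank within the list gave another order for Gadd45b. The peak was number 43 of 2034 and 51 of 1171 in IgM cells with IL-21 and number 64 of 865 and 101 of 1485 in IgG1 cells with IL-21. With IL-4 it was number 264 of 1455 in the IgM library and number 29 of 651 in the IgG1 library. As shares of the list these are 2.11%, 4.36%, 7.40%, 6.80%, 18.1% and 4.45%. The IL-4 IgG1 share lay within the range of the IL-21 shares, and the IL-4 IgM share outside it. The summit held 69, 52, 30 and 34 fragments with IL-21, in the order IgM 1, IgM 2, IgG1 1 and IgG1 2, and 17 and 22 fragments with IL-4. The peaks of 3 of the 6 libraries reached into the promoter window of the gene. The second region in the Gadd45b window, 26409 bp beyond the end of the gene and inside Gng7, a G protein subunit gene, had a peak in 1 WT IL-21 IgM library only, with a fold of 4.94.

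Gadd45g stands alone in its window, with no other protein-coding gene within 50 kb of its span (mm10 chr13:51846675-51848475). It had 3 regions, more than any other gene of the set, and all 7 of their peaks came from WT IL-21 libraries. The gained region (chr13:51848746-51849896) began 271 bp past the end of the gene. Its fold was 10.8 and 4.05 in IgM cells and 6.19 and 7.26 in IgG1 cells, a mean of 7.07 ± 2.81 (SD, n = 4). The IgM libraries lay at the 2 extremes, with the IgG1 libraries between them. The peak was number 193 of 2034, 683 of 1171, 136 of 865 and 235 of 1485, with 31, 18, 20 and 23 fragments at the summit. Its summits spread over 278 bp, against 82 bp at Gen1.

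Before the gene, a region at chr13:51845253-51845653 had a fold of 8.24 and 3.63 in the IgM libraries with IL-21 and no peak in any other library. A smaller region nearer the start (chr13:51846041-51846427) was listed in 1 IgM library with IL-21, with a fold of 3.98 and 14 fragments at its summit. Its best summit lay 492 bp before the gene start. Gadd45g regions thus flanked the gene on both sides, and those before it were listed in IgM cells alone. In the second IgM library their peaks were number 973 and 957 of 1171, low in the list. In the first, the farther region was number 364 of 2034. The nearer region rests on 1 library, and absence of a peak is not absence of binding.

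**Figure D2:**
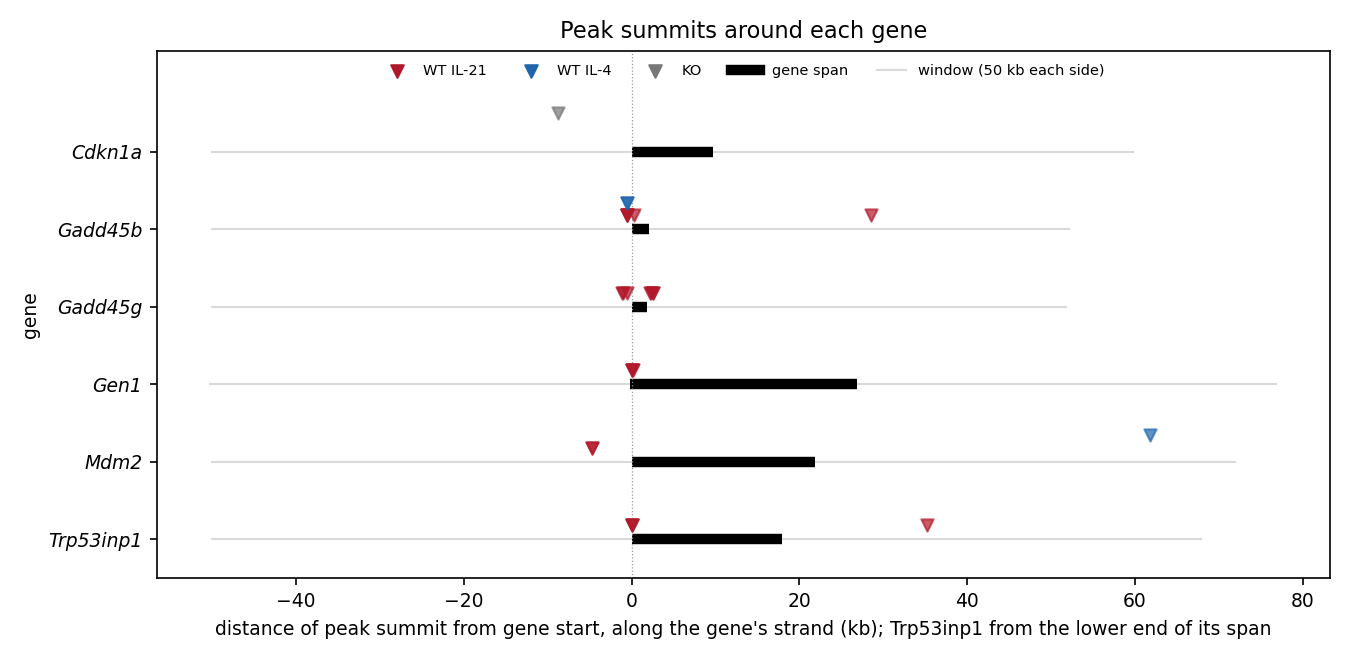
Position of every peak summit (triangles, coloured by group) relative to the gene start in kb, read along the strand of each gene, with the gene span in black and the window of 50 kb on each side in light grey. For Trp53inp1 distances run from the lower end of its span. Apart from 1 distant summit each at Gadd45b and Trp53inp1, the WT IL-21 summits of these genes and of Gadd45g and Gen1 crowd near 0, and those at Mdm2 lie to the left of the start.

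Mdm2, the ubiquitin ligase and main inhibitor of p53, had 1 region found in more than 1 library. It lay before the gene (mm10 chr10:117715145-117715613), its best summit 4726 bp from the gene start (gene span chr10:117688875-117710758, minus strand). The fold was 11.7 and 11.9 in the 2 WT IL-21 IgM libraries, a mean of 11.8 ± 0.172 (SD, n = 2), the smallest SD among the leading regions of the genes. No peak was listed in the IgG1 libraries with IL-21, in any WT IL-4 library or in any KO library. In the IgM libraries the peak was number 168 of 2034 and 66 of 1171, with 32 and 42 fragments at a summit over backgrounds of 1.83 and 2.61. These match the lowest backgrounds read in the same libraries, so the Mdm2 folds rest on the floor of the background. The IgG1 libraries with IL-21 listed peaks elsewhere from 11 fragments upward. The signal below that height is not shown by a peak list, so absence of a peak is not absence of binding. The other region of the window, inside the neighbour Cpm, a carboxypeptidase gene, was a peak of 1 WT IL-4 IgG1 library with a fold of 4.53.

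Trp53inp1 encodes a stress-induced protein that promotes the phosphorylation of p53 and takes part in autophagy. Its main region (mm10 chr4:11156326-11156678) covered the lower end of the gene span (chr4:11156441-11174379), with the summits of 3 libraries inside 42 bp. The fold was 7.34 and 4.39 in the IgM libraries with IL-21 and 7.13 in the second IgG1 library with IL-21, a mean of 6.29 ± 1.64 (SD, n = 3). The first IgG1 library with IL-21, all 4 WT IL-4 libraries and all 4 KO libraries had no peak. The IgG1 value lay between the IgM values. The peak was number 341 of 2034 and 365 of 1171 in IgM cells and number 151 of 1485 in the IgG1 library. Without the first IgG1 library the region counts as gained. Fewer libraries are then required, and gained regions over the series rise from 98 to 215. A second region of the window lay inside Ccne2, the cyclin E2 gene that drives entry into S phase, and was listed in the second IgM library with IL-21 alone, with a fold of 5.53 and 19 fragments.

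Cdkn1a encodes p21, the inhibitor of cyclin-dependent kinases through which p53 halts the cell cycle. It was the 1 gene of the set with no WT peak within 50 kb of its span (mm10 chr17:29090979-29100722). The single region (chr17:29082095-29082363), 8714 bp before the gene start, was a peak of the KO IgG1 library with IL-4. It had a fold of 4.30, 12 fragments at its summit and rank 1022 of 1892. None of the 8 WT libraries listed a peak in this window.

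**Figure D3:**
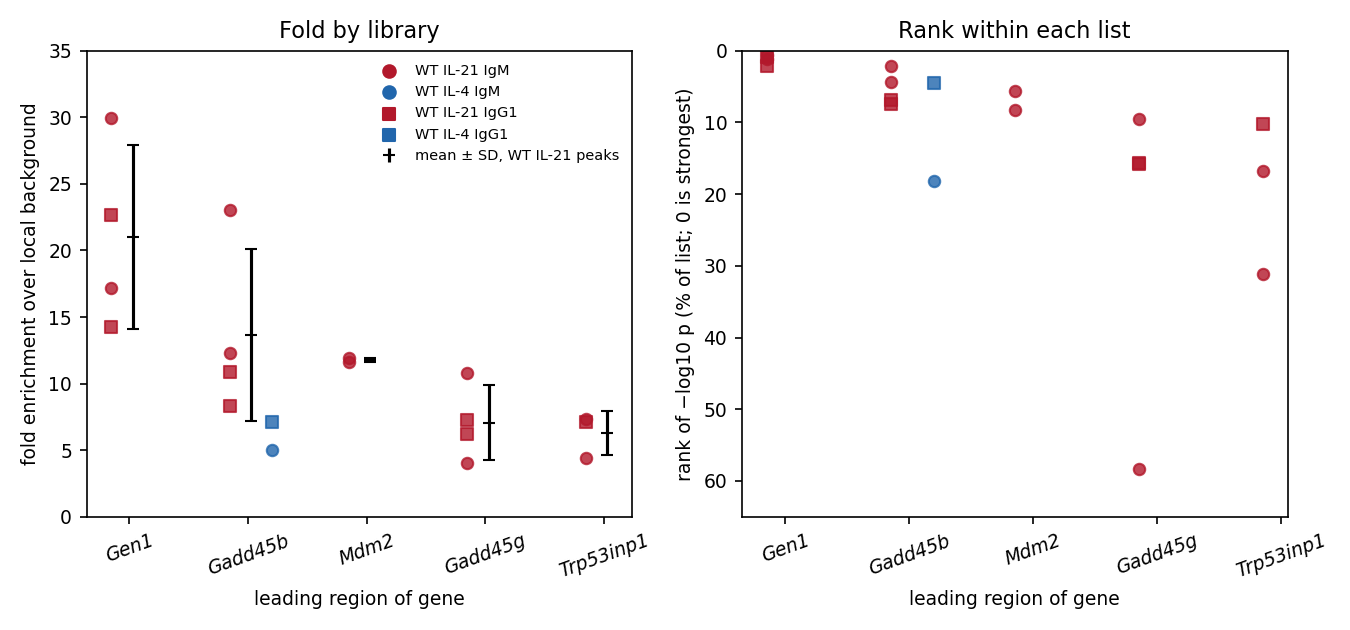
Fold enrichment (left) and rank of −log10 p as a percent of the length of the list (right, strongest at the top) for the leading region of 5 genes, by library, with IgM as circles, IgG1 as squares, WT IL-21 in red and WT IL-4 in blue. Black bars give the mean ± SD over the WT IL-21 libraries with a peak. Gen1 has the highest mean fold, 21.0, and Gadd45g spans from 9.49% to 58.3% of the list.

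By isotype, the IL-21 IgM lists had peaks in 7 and 8 of the 11 regions and the IL-21 IgG1 lists in 3 and 4. The lists differ in length (2034 and 1171 peaks in IgM, 865 and 1485 in IgG1), and whether this bears on the counts was not tested. The genes were chosen with these peaks in view, so nothing is read from the counts by isotype. Of the 11 regions 2, at Mdm2 and before Gadd45g, had a peak in both IL-21 IgM libraries and in no other WT library. Over the series 88 of 7461 WT regions had this pattern, 1.18%. Of the 3 regions found in all 4 IL-21 libraries, only Gadd45b had both IgM folds above both IgG1 folds (means of 17.6 and 9.61, n = 2 each). The share of all regions with this order is not given here, so it is not read as a trait of Gadd45b. At Gen1 the means were 23.6 and 18.4, and at Gadd45g 7.42 and 6.72, with overlapping values. With 2 libraries a side no permutation test can pass, and none was made.

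By genotype, none of the 10 regions with a WT peak had a peak in any KO library. This is the rule in the series: 7108 of 7461 WT regions had no KO peak, 95.3%. Most regions of the series (10180 of 11227) were found in 1 library only. Such a region with a WT peak has no KO peak by definition, so this share is partly fixed in advance. The KO lists held 1073 and 648 peaks with IL-21 and 763 and 1892 with IL-4, within the range of 623 to 2034 of the WT lists. Each KO group has 1 library, and its spread is unknown.

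**Figure D4:**
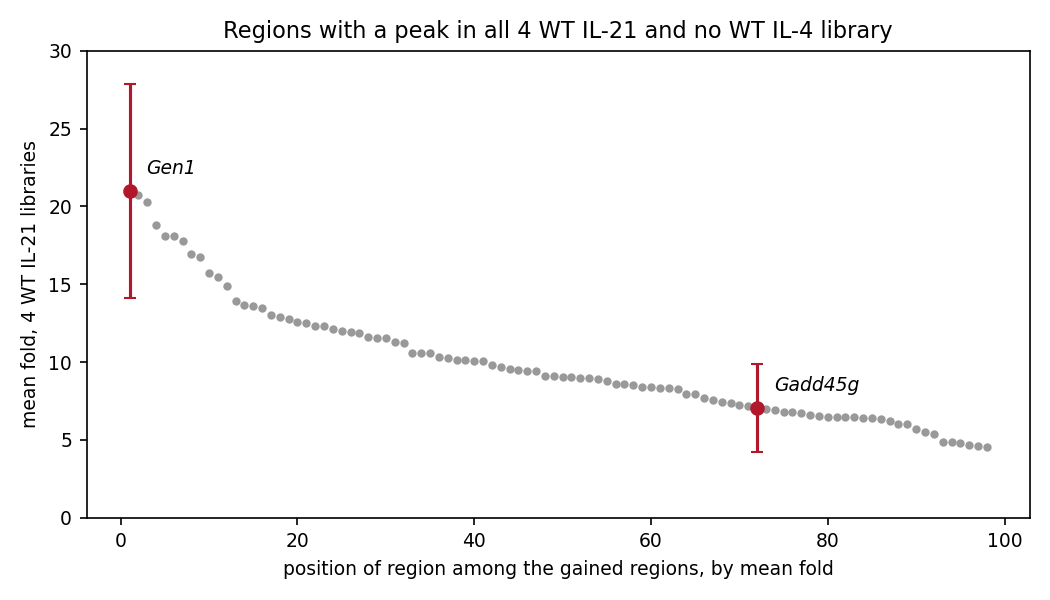
Mean fold over the 4 WT IL-21 libraries (vertical axis) of the 98 gained regions, ordered by that mean (horizontal axis). Gen1 and Gadd45g are marked in red with the SD over the 4 libraries. Gen1 lies at position 1 and Gadd45g at position 72, below the median fold of 9.07.

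Among the 98 gained regions the mean fold ran from 4.54 to 21.0 with a median of 9.07. The plot of mean fold by position shows the pair from this gene set far apart, Gen1 at position 1 and Gadd45g at position 72. The regions at positions 2 and 3, at Rabggta and Gsk3a, had mean folds of 20.7 and 20.3, within 1 SD (6.89) of Gen1. Regions most like those of the set were sought among all others by the same presence in all 12 libraries and then by the smallest mean difference in rank, as a percent of the list, over the IL-21 libraries that share them. For Gen1, 90 regions had the same presence, and the nearest in rank were at Gsk3a, a kinase gene (difference 0.309 percentage points over 4 libraries), and Rabggta, a Rab prenylation gene (0.469). For Gadd45g, with the same 90 regions, they were at Gdf9 (4.72) and Zfp950 (8.50). For Gadd45b only 3 regions shared its pattern of 6 libraries, and the nearest were at Fastk (2.03) and Glt28d2 (2.91). For Trp53inp1, with 105 such regions, they were at Nipa2 (3.46) and Dthd1 (3.91), over 3 libraries.

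The edge of the window matters for Gadd45g and Gadd45b. The outermost region inside a window lay 39844 bp from Mdm2, in Cpm, at a fold of 4.53. The innermost outside lay 52818 bp from Gadd45g, at a fold of 5.61 in 1 WT IL-4 library, and the next 53327 bp from Gadd45b within Gng7, at folds of 6.04 to 7.42 in 3 WT IL-21 libraries. Between 50 and 100 kb there were 10 regions, of which 3 were found in at least 2 libraries. One of these 3 was gained. It lay 87699 bp past Gadd45g (mm10 chr13:51936174-51936802), with Gadd45g still the nearest protein-coding gene, and had a mean fold of 6.05 over the 4 WT IL-21 libraries.

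The wider pathway was read from 75 other genes: 56 of the p53 pathway and cell cycle arrest (among them Trp53 itself, Mdm4, the Cdkn1 and Cdkn2 inhibitors, Bax and the sestrins), 12 of junction resolution, and 7 that encode partners of Gadd45 proteins. None of the 75 windows (0 of 75) held a gained region, against 303 of 21883 protein-coding gene windows, 1.38%. At least 1 region of any kind was present in 51 windows (68.0%, against 56.1% of all protein-coding genes) and a region found in at least 2 libraries in 8 (10.7%, against 11.4%). Of the 75 genes 2 had a region listed by 3 IL-21 libraries of WT cells, which in both cases lay far from the gene and inside another. That of Cdkn2d, an inhibitor of Cdk4 and Cdk6, was 49245 bp away inside Keap1, with folds of 3.60 to 5.11 and 1 WT IL-4 peak. That of Rmi2, a subunit of the complex that dissolves double Holliday junctions, was 49597 bp away inside Socs1, the feedback inhibitor of JAK kinases, with folds of 3.48 to 6.32. Without the first IL-21 IgG1 library the Rmi2 window counts as gained, and 1 of 75 genes then has such a region. Fewer libraries are then required, and gained regions over the series rise from 98 to 215.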

How the data were processed

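The 12 antibody libraries (8 WT, 4 KO) were analysed. The input sample was not analysed here. Per the submitters' processing notes the tools were Trimmomatic 0.39, Bowtie2 2.4.1, MACS2 2.2.7.1 and deepTools 3.5.1, with build mm10, without roles. The control, the filters and any use of the spike-in were not stated. The authors deposited 1 peak list per library, in which each peak has a fold enrichment (a ratio to local background), its −log10 p and q, and a score of about 10 times the −log10 p. The lowest deposited −log10 p was 5.00.

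Of 13908 peaks, 395 off chromosomes 1 to 19, X and Y were left out, leaving 623 to 2034 per library. Sequencing depth is unknown. The pileup and background read from fold and −log10 p solved within 0.001 for all peaks with a −log10 p under 30, and gave lowest backgrounds of 1.72 to 2.61 fragments and smallest called pileups of 10 to 12. The 7 of the 27 peaks at the 6 genes above that limit were also solved within 0.001. Gene spans and starts came from RefSeq tables on GRCm38.p6. Python 3.11.15, pandas 2.3.3 and SciPy 1.17.1 were used, and region joining and pileup reading were tested on simulated data. The genes and lists were chosen with earlier results of these data known. Named were the 6 genes, every region of theirs, list genes whose window held a region of 3 or more WT IL-21 libraries, and the 2 likest regions per gene. Whether replicates were separate animals is not stated, so SDs may be technical.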

Additional observations from a re-analysis of the deposited data

Results flagged for a closer look

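At the gained region past the end of Gadd45g, the rank of the peak in the second WT IL-21 IgM library lay far from the other 3. It stood at 58.3% of its list (number 683 of 1171), against 9.49%, 15.7% and 15.8% in the others. In 9 sets of 4 values (fold, −log10 p and rank share at 3 regions) this was the 1 set with such a library. Neither the fold nor the −log10 p of the Gadd45g region had one. Chance alone picks out about 1 in 20 sets if values are normal and sets independent, but these sets share the same peaks.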

How the results depend on the processing

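Joining by 50% overlap or by summits within 250 bp, windows of 10 or 100 kb, and counting only the nearest gene kept the counts of regions found in at least 2 libraries (6), gained regions (2) and list genes with a gained region (0) within 1.5 times. Windows of 100 kb gave 9 regions found in at least 2 libraries and 3 gained regions. Gained regions fell from 2 to 1 with a −log10 q of at least 5, and to 1 with every list cut to its 623 strongest peaks. Gadd45g was lost in both, since its second IgM peak has a −log10 q of 3.77 and rank 683. Leaving out each WT library in turn gave 4 to 6 regions in at least 2 libraries, 2 to 3 gained regions and 0 to 1 list genes. Over the series it gave 99 to 215 gained regions, against 98 with all libraries. All 30 mean folds recomputed for the leading regions moved by less than 1 SD. Each used the same peaks or left out 1 library, which cannot move a mean by 1 SD, so nothing is read from this. No paired analysis was possible because the results come from no test. Peak lists show no signal under their threshold.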

Other observations

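The following observations on list genes were chosen after their values were seen. Pmaip1, which encodes the pro-apoptotic p53 target Noxa, had a region 5147 bp from the gene with folds of 8.69 and 4.05 in the 2 WT IL-21 IgM libraries and no peak in any other library. Another region, 5496 bp from Pmaip1, had a peak in the first IgM library with IL-21 alone (fold 9.18). Rmi2 had, apart from the distant region inside Socs1, a region 1128 bp from its own span with folds of 5.06 in the first IgM and 5.86 in the second IgG1 library with IL-21. Inside the Rmi2 span the first IgM library with IL-21 alone had a peak (fold 5.57). Fas, the death receptor gene, had a peak at each of 2 regions by its span, in the first IgM library with IL-21 (fold 8.12, 289 bp outside the span) and in the second IgG1 library with IL-21 (fold 4.74, inside it). Close to Cdkn2d, a region 657 bp from its span and inside Kri1 had folds of 3.36 in the second IgM and 3.24 in the second IgG1 library with IL-21. Inside the Cdkn2d span the second IgG1 library with IL-21 alone had a peak (fold 4.21).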
